A study of Mus musculus with 96 samples.

Results

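Single fetal liver cells sorted as haematopoietic stem cells (HSCs) at E14.5, where E gives the day of embryonic life, were compared with those sorted at E12.5. The members were 27 of the 32 liver wells, out of 96 wells in the whole series. They were the wells with at least 2000 genes detected and at most 100 CPM (reads scaled to a common library total) of Slc4a1, the red cell anion exchanger. This left 15 cells at E12.5 and 12 at E14.5, each from a C57BL/6 embryo and each sequenced alone. Cells at E12.5 had been gated as Ter119-Sca-1+c-kit+EPCR+, and cells at E14.5 as Ter119-Sca-1+c-kit+CD48-CD150+. Age and gate changed together, so their parts in any difference cannot be told apart. No treatment or mutation is named for either group. The labels name no embryo or litter, so each age counted as 1 sample and no test between ages was made. The series sets out to follow the transition from pre-HSCs to liver HSCs, and this comparison covers its last step. Its E11.5 wells, 48 of aorta-gonad-mesonephros and 16 of yolk sac pre-HSCs, serve only as a reference for pooled levels.

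HSCs enter the fetal liver from the aorta and other embryonic vessels and expand there before they seed the bone marrow. Fetal HSCs divide often, whereas most adult HSCs rest. To copy its DNA, a cell loads the MCM helicase onto origins with the help of Cdt1, opens them with the GINS complex, starts strands with DNA polymerase alpha and supplies nucleotides through enzymes such as ribonucleotide reductase. Many of these genes are transcribed under E2F factors late in G1, while many mitotic genes are switched on later through a promoter element called the CHR.

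A gene was called higher or lower when its level in the pooled reads of one age was at least 2-fold that of the other on the log2(CPM + 1) scale. The same had to hold with each cell left out in turn, and a read was required in 50% or more of the cells at the age where the gene was higher. Of 11583 genes with at least 30 reads over the 27 cells, 322 were called higher at E14.5, which is 2.78%. The number called lower was 223, which is 1.93%. By the 2-fold limit with all cells alone, 2576 of these genes were higher and 2787 lower. These are counts by a rule of size and carry no p-value. The median log2 ratio of E14.5 over E12.5 over all of these genes was -0.05. Brackets after a pooled CPM give its exact 95% Poisson interval, which covers counting error only.

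The kept cells held between 626645 and 1926882 reads. E12.5 cells had a median of 4077 detected genes (2887 to 10509) and E14.5 cells a median of 5095 (2924 to 6106). After each cell was thinned to 500000 reads the medians were 3817 and 4766.5. E12.5 cell 1 stood apart with 10509 genes, and the next highest E12.5 cell had 6686. Without that cell 374 genes were called higher and 223 lower. The median Spearman correlation between cells was 0.43 within E12.5, 0.48 within E14.5 and 0.45 between the ages, so the median for pairs of different ages lay between those for pairs of 1 age. The first principal component, with 15.6% of the variance, followed the number of genes detected (Pearson's r 0.87 over 27 cells, given as a description).

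Genes of DNA replication and nucleotide supply had more members called than any other list examined. Of 37 such genes, 10 were called higher at E14.5, 1 was called lower and 26 were not called. Of all genes tested, 2.78% were called higher and 1.93% lower. The ratio was above 0 for 32 of the 37 genes, and the list's median log2 ratio was 1.12, beside -0.05 for all genes. The promoters of 3 of these genes are shown because they hold letters that E2F factors are known to bind. They belong to Mcm3, a helicase subunit (chr1:20820263-20820562, minus strand), Cdt1, the helicase loading factor (chr8:122567765-122568064, plus strand), and Rfc3, a subunit of the clamp loader and the gene called lower (chr5:151651159-151651458, minus strand). The windows are RefSeq's for GRCm38.p6, and capitals mark the E2F letters.
Mcm3: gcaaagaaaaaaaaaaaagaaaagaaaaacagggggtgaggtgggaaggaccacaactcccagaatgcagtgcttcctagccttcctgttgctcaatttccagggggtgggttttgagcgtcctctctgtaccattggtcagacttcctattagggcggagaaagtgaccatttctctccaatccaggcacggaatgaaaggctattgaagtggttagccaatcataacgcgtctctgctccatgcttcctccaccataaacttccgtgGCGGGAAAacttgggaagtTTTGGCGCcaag
Cdt1: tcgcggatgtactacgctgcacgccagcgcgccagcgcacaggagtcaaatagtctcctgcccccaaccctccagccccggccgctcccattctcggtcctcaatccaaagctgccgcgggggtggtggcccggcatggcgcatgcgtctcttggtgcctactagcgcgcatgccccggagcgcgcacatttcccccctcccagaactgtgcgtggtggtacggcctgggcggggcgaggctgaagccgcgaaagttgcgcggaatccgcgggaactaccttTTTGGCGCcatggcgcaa
Rfc3: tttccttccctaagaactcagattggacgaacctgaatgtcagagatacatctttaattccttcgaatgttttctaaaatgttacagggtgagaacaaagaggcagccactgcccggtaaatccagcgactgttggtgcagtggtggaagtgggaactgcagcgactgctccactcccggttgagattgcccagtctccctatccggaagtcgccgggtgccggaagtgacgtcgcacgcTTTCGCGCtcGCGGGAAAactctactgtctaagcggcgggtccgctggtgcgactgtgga

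The letters searched were TTTCCCGC, TTTGGCGC, TTTCGCGC and TTTGCCGC on both strands. The Mcm3 window held GCGGGAAA, which is TTTCCCGC on the other strand, and TTTGGCGC. The Cdt1 window held TTTGGCGC once, and the Rfc3 window held TTTCGCGC and GCGGGAAA. At least 1 of these words stood in a window of 11 of the 31 replication genes that have one, which is 35.5%. The share was 4.95% of the 8743 tested genes with a window and 2.60% of all 27025 genes in the RefSeq table. Among the 10 replication genes called higher, 7 had a window and 4 of these held the letters. Over all genes called higher the share was 5.62%, and over all called lower it was 3.35%. The letters were thus found both in genes called higher and in Rfc3, and a match describes the sequence only.

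Mcm3 (ENSMUSG00000041859.10, chromosome 1, 20802968 to 20820312 on the minus strand of mm10) was read in 11 of 12 E14.5 cells, at 0 CPM in the lowest, 675 in the median and 1511 in the highest cell. At E12.5 it was read in 12 of 15 cells, with a median of 112 and a highest value of 615 CPM. No E12.5 cell reached the E14.5 median, and 6 E14.5 cells lay above the highest E12.5 cell, although the lowest cells of both ages were at 0. Pooled over cells, Mcm3 reached 641 CPM (628 to 653) in the E14.5 reads against 140 CPM (135 to 146) in those of E12.5, a log2 ratio of 2.18, with at most 2.49 and no less than 2 when any 1 cell was left out. Mcm4, another helicase subunit, had medians of 337 and 1.43 CPM at E14.5 and E12.5, and its pooled levels of 347 and 95.9 CPM gave a log2 ratio of 1.84. Of the 15 E12.5 cells, 2 lay above the E14.5 median of Mcm4.

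The other 4 helicase subunits were not called. Their log2 ratios were 1.20 for Mcm2, 0.99 for Mcm5, 1.14 for Mcm6 and 0.91 for Mcm7. For Mcm2 the ratio was 0.68 without E14.5 cell 1, and for Mcm6 it was 0.99 without E12.5 cell 3. Both therefore passed 2-fold with all cells and missed it with 1 cell left out. Summed over the 6 subunits, E12.5 cells ran from 2.89 to 4386 CPM with a median of 1340.5 CPM, and E14.5 cells from 700 to 5835 CPM with a median of 3532 CPM. The ranges overlapped, and the lowest cell was an E12.5 cell.

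**Figure D1:**
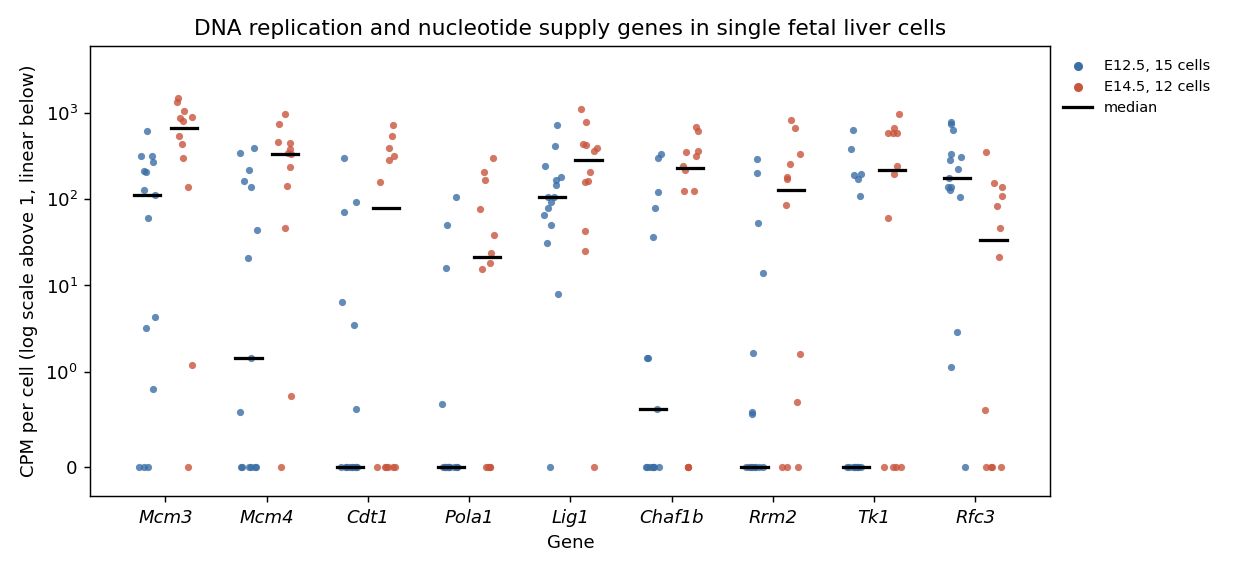
Level of 9 DNA replication and nucleotide supply genes in each kept cell, in CPM on an axis that is logarithmic above 1 and linear below it. Points are single cells, 15 at E12.5 and 12 at E14.5, and bars are medians. For Mcm3 no E12.5 cell reaches the E14.5 median of 675 CPM, and for Rfc3 the E12.5 median of 175 CPM is the higher of the pair.

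Cdt1 was read in 6 cells of each age. Its E14.5 cells had a median of 79.8 and a highest value of 720 CPM, and its E12.5 cells a median of 0 and a highest value of 301 CPM. Pooled Cdt1 was 210 CPM (203 to 217) in the later group against 38.5 CPM (35.7 to 41.4) in the earlier one, a log2 ratio of 2.42. One E12.5 cell supplied 63.1% of that group's Cdt1 reads, and the ratio was 3.68 without it. Pola1, the catalytic subunit of DNA polymerase alpha, was read in 8 of 12 E14.5 and 4 of 15 E12.5 cells and had a log2 ratio of 2.49 (86.8 against 14.6 CPM). Gins1, of the GINS complex, had a log2 ratio of 1.36 (141 against 54.4 CPM).

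Lig1 and Chaf1b, which act behind the fork, were also called higher. Lig1, the ligase that joins lagging strand fragments, was read in 11 of 12 E14.5 and 14 of 15 E12.5 cells, with medians of 286 and 105 CPM and a log2 ratio of 1.46. Chaf1b, of the chromatin assembly factor that places histones on new DNA, had medians of 230 and 0.61 CPM and a log2 ratio of 1.90. In Cdt1, Pola1, Gins1, Lig1 and Chaf1b the groups overlapped, with cells at 0 CPM at both ages. Pcna, the sliding clamp, was read in all 12 E14.5 and 12 of 15 E12.5 cells at 499 and 223 CPM pooled. It was not called, since its log2 ratio of 1.16 was 0.92 without E14.5 cell 1.

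In nucleotide supply, Rrm2, the regulated subunit of ribonucleotide reductase, had the largest ratio among the called replication genes. It was read in 9 of 12 E14.5 cells, with a median of 129 and a highest value of 830 CPM, and in 7 of 15 E12.5 cells, with a median of 0 and a highest value of 291 CPM. In 3 E14.5 cells Rrm2 exceeded every E12.5 cell, and 2 E12.5 cells exceeded the E14.5 median. Pooled Rrm2 was 224 CPM (217 to 231) against 26.7 CPM (24.4 to 29.1), a log2 ratio of 3.02, with 2.58 to 3.65 when 1 cell was left out. Tk1, thymidine kinase, had a log2 ratio of 1.63 (370 against 119 CPM). Dut, which removes dUTP, had a ratio of 1.12 that was not called.

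Rfc3 ran the other way. It was read in 14 of 15 E12.5 cells, with a median of 175 and a highest value of 790 CPM, and in 8 of 12 E14.5 cells, with a median of 33.7 and a highest value of 353 CPM. Of the E12.5 cells 12 lay above the E14.5 median of Rfc3, and 1 E14.5 cell lay above the E12.5 median. Its log2 ratio was -1.55 (86.9 against 256 CPM pooled). The other clamp loader genes listed, Rfc4 and Rfc5, had ratios of 0.46 and 0.13 and were not called. Rfc2, a clamp loader gene outside the list that was chosen after its values were seen, was called higher at 839 against 364 CPM pooled (log2 ratio 1.20, lowest 1.09 with a cell left out). With all 32 wells Rfc3 was no longer called lower.

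The whole list summed to a median of 4778 CPM per E12.5 cell (933 to 11460) and 7929 CPM per E14.5 cell (2895 to 17713). With the 11 called genes left out of the sum the medians were 3987 and 5728 CPM. A median of 20 of the 37 genes had a read in an E12.5 cell and 27 in an E14.5 cell. Detected genes per cell over all genes were also more numerous at E14.5 (medians above), and the part of this in the replication genes was not tested. The count of 10 genes called higher was 11 without E12.5 cell 1, and it ranged from 7 without E14.5 cell 5 to 14 without E12.5 cell 14.

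**Figure D2:**
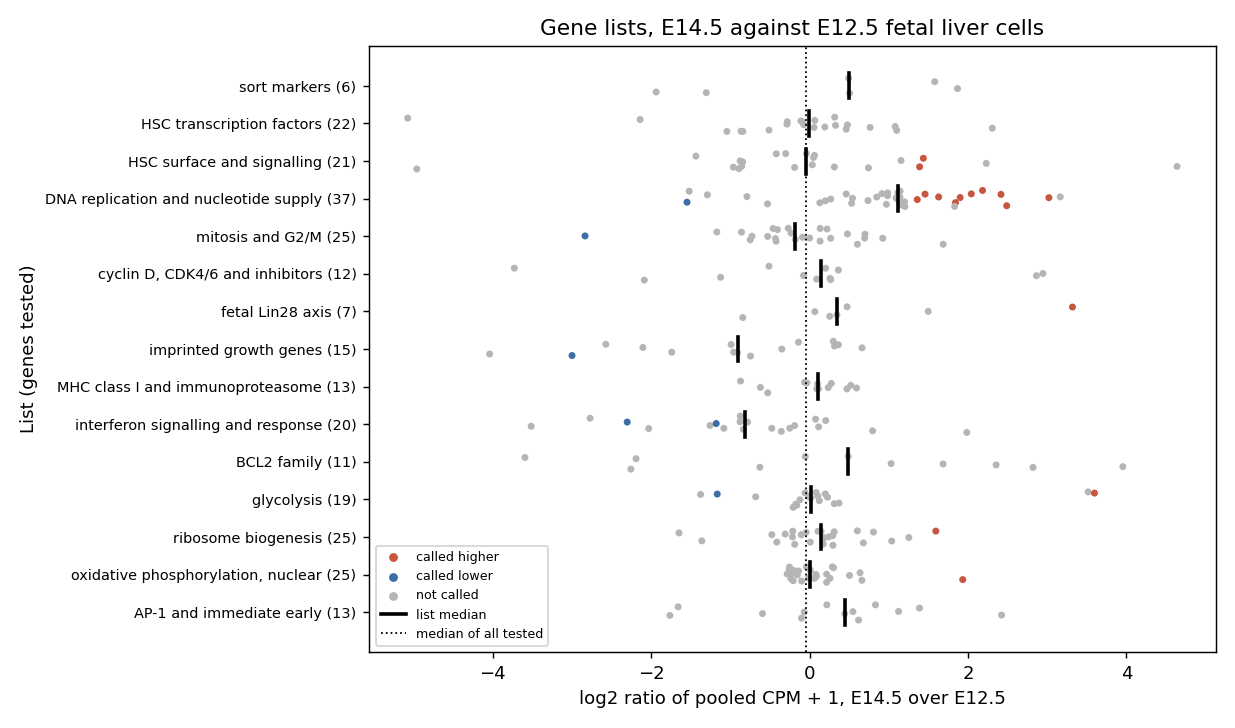
Log2 ratio of pooled CPM + 1, E14.5 over E12.5, for the genes tested in 15 lists. Each point is a gene, red where called higher, blue where called lower and grey where not called, black bars are list medians and the dotted line is the median of all tested genes, -0.05. The replication list has its median at 1.12 and 10 red points, and the mitosis list has its median at -0.18 and none. Of all tested genes 2.78% were called higher.

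The list of mitotic and G2/M genes had no member called higher, beside 2.78% of all genes tested. At that share, 0 of 25 is no result about the list. Of its 25 genes 1 was called lower, beside 1.93% of all genes tested, 24 were not called, and the median log2 ratio was -0.18. A median of 8 of the 25 genes had a read in an E12.5 cell and 15 in an E14.5 cell, and the part in this of the more numerous detected genes at E14.5 was not tested. Outside the list, and chosen after their values were seen, Trip13, an ATPase of the spindle checkpoint, and Cdca5, which encodes the cohesin protector sororin, were called higher. Trip13 was at 183 CPM pooled at E14.5 against 43.6 CPM at E12.5 (log2 ratio 2.05), and Cdca5 was at 222 against 69.2 CPM (1.67). The gene called lower was Bub1b, a kinase of the spindle checkpoint, at 18.1 CPM pooled at E14.5 and 135 CPM at E12.5 (log2 ratio -2.83). Its E12.5 cells had a median of 52.3 and a highest value of 411 CPM and its E14.5 cells a median of 0.26 and a highest value of 257 CPM. One E14.5 cell gave 86.01% of that group's Bub1b reads, and the ratio was -5.20 without it. Not called were Ccnb1, a mitotic cyclin, at -0.18, Cdk1, its kinase, at -0.42, Plk1, a mitotic kinase, at 0.70 and Ube2c, a ubiquitin enzyme of mitotic exit, at -1.17. The Ube2c ratio was -0.86 without E12.5 cell 3.

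The letters TTTGAA or TTCGAA of the CHR, on either strand, stood in a window of 16 of the 21 mitotic genes that have one, 76.2%, and in 16.1% of replication genes with a window. The share was 16.8% of all tested genes with a window. The E2F letters stood in 1 of the 21 mitotic genes, 4.76%. The 2 lists thus differed in these letters, and no link to their levels was tested.

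Single cells differed widely in mitotic genes at both ages. Their sum was under 1000 CPM in 7 of 15 cells at E12.5 and 3 of 12 at E14.5, and above 5000 CPM in 7 of 15 and 5 of 12. These limits were set after the values were seen. The range was 1.43 to 16239 CPM in the earlier group, with a median of 2597 CPM, and 641 to 16010 CPM in the later one, with a median of 3453 CPM. High and low cells were thus present in both groups.

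**Figure D3:**
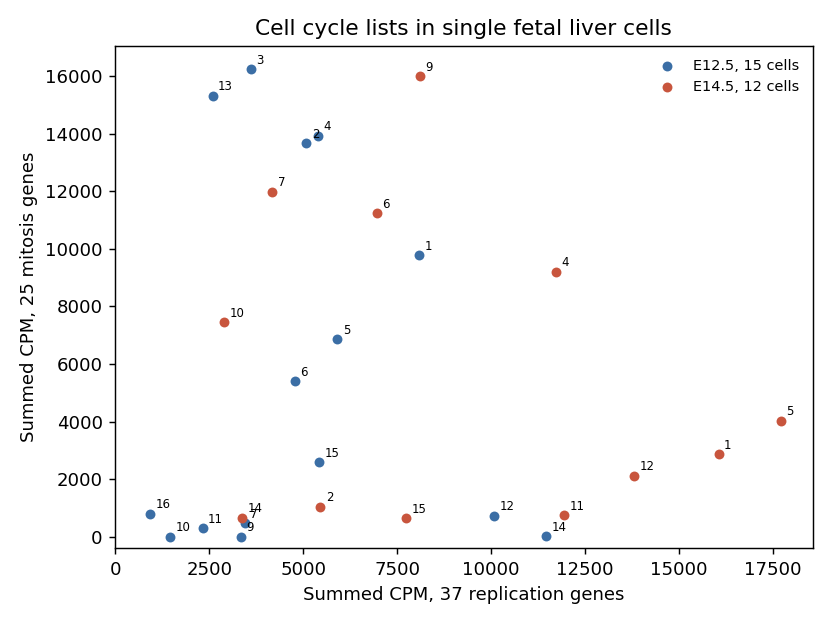
Summed CPM of the 37 replication genes (horizontal) and of the 25 mitotic genes (vertical) in each kept cell, labelled with its well number, for 15 E12.5 and 12 E14.5 cells. Cells of both ages lie at the bottom and at the top of the mitotic axis, and the highest replication sum, 17713 CPM, belongs to E14.5 cell 5.

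The regulators of G1 showed no called gene among the 12 tested, beside 2.78% of all genes tested called higher and 1.93% lower. At those shares, 0 calls among 12 are no result about the list. Cdk4, the kinase that D cyclins activate, was at 1700 CPM pooled at E14.5 and 1793 CPM at E12.5 (log2 ratio -0.08), and Ccnd2 and Ccnd3, 2 of the D cyclins, had ratios of 0.27 and -0.51. Cdkn1c, an inhibitor of cyclin kinases that marks resting HSCs, had a ratio of 0.36. The median of the list was 0.15.

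The 6 genes listed as sort markers gave no call, beside 2.78% of all genes tested called higher and 1.93% lower. Among them, Itgam encodes an antigen that neither gate above names. Kit, the stem cell factor receptor, was read in 11 of 12 E14.5 cells, with a median of 128 and a highest value of 350 CPM, and in 12 of 15 E12.5 cells, with a median of 7.22 and a highest value of 432 CPM. Its pooled log2 ratio was 0.50. Ly6a, which encodes Sca-1, was read in 8 of 12 E14.5 cells (median 60.9, highest 560 CPM) and in 12 of 15 E12.5 cells (median 190, highest 1302 CPM). Pooled Ly6a was 92.1 against 229 CPM, and the log2 ratio of -1.30 was -0.90 without E12.5 cell 6, so it was not called. Reads of both Kit and Ly6a were found in 7 of 12 E14.5 and 9 of 15 E12.5 cells. Slamf1, which encodes the CD150 of the E14.5 gate, was read in 2 of 12 E14.5 cells and 2 of 15 E12.5 cells. Cd48, whose protein that gate excluded, was read in 4 of 12 E14.5 and 5 of 15 E12.5 cells, and Procr, which encodes EPCR, in 4 of 12 and 8 of 15. Itgam, which encodes the myeloid antigen CD11b, was at 1.54 and 8.72 CPM pooled. The labelled cell type therefore had its Kit and Ly6a transcripts in most cells, while few E14.5 cells had a Slamf1 read at these depths.

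HSC transcription factors had a median log2 ratio of -0.01. No member was called among 22, beside 2.78% of all genes tested called higher and 1.93% lower. At those shares, 0 calls among 22 are no result about the list. By the mean of the cells' CPM, and also after thinning to 500000 reads, 1 of these factors was called higher. Runx1, needed for HSCs to form, had a ratio of -0.09, Gata2 one of 0.06, Mecom one of -0.07 and Meis1 one of -0.28. Lmo2, a partner of Gata factors, was read in every cell of both ages and had a ratio of 0.19. Hlf, a factor of HSC maintenance, was at 39.3 CPM at E14.5 and 72.4 CPM at E12.5, a ratio of -0.87. Hoxa9, a homeobox factor of HSC growth, had medians of 213 and 37.6 CPM, and its ratio of 1.10 was 0.76 without E14.5 cell 11, so it was not called. Sox17, a factor of fetal HSCs and endothelium, had 0 reads in all E14.5 cells and was at 32.7 CPM at E12.5, which exceeds the limit set by 3 reads in the E14.5 group at least 177-fold. Only 3 of 15 E12.5 cells held Sox17 reads, and 1 of them held 72.96%, so it was not called either.

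Among 21 genes of HSC surface and signalling proteins, 2 were called higher and none lower, with a median ratio of -0.04. Of all genes tested, 2.78% were called higher. Jam3, a junction adhesion molecule, was read in 8 of 12 E14.5 cells, with a median of 79.3 and a highest value of 377 CPM, and in 8 of 15 E12.5 cells, with a median of 0.83 and a highest value of 212 CPM. In 2 E14.5 cells Jam3 exceeded every E12.5 cell, while 3 E12.5 cells exceeded the E14.5 median. Its pooled log2 ratio was 1.44 (98.5 against 35.7 CPM), with 1.14 to 1.96 when 1 cell was left out. Cd34, a sialomucin of blood progenitors, was at 711 and 572 CPM (0.31), Adgrg1, an adhesion receptor of HSCs, at 656 and 628 CPM (0.06), and Esam, an adhesion molecule of fetal HSCs, at 219 and 428 CPM (-0.96). None of these 3 was called. With all 32 wells, by the mean of the cells' CPM, after thinning or with 10 CPM added, 1 of these 21 genes in place of 2 was called higher. After thinning 1 was called lower.

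Mpo, the peroxidase of myeloid granules, was the 1 gene called higher among 5 tested of the granule list, beside 2.78% of all genes tested. It was read in 9 of 12 E14.5 cells, with a median of 501 and a highest value of 3417 CPM, and in 9 of 15 E12.5 cells, with a median of 233 and a highest value of 920 CPM. In 5 E14.5 cells Mpo exceeded every E12.5 cell, while 3 E14.5 cells had none. Its pooled log2 ratio was 1.79 (1023 against 294 CPM). Prtn3, another granule protease, had a ratio of -0.72 (285 against 469 CPM), and Elane had 0 and 1 read. The list's sum ran from 165 to 3776 CPM per E14.5 cell and from 255 to 2099 CPM per E12.5 cell.

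Imprinted growth genes had 1 member called lower of 15 tested, 11 ratios below 0 and a median of -0.91. Of all genes tested, 1.93% were called lower. Igf2 (ENSMUSG00000048583.16, chromosome 7, 142650766 to 142666816 on the minus strand of mm10), the fetal growth factor, was read in 12 of 15 E12.5 cells, with a median of 239 and a highest value of 774 CPM. It was read in 9 of 12 E14.5 cells, with a median of 31.2 and a highest value of 147 CPM. Of the E12.5 cells 10 lay above every E14.5 cell, and the other 5 were at or near 0. Pooled Igf2 was 291 CPM (283 to 298) in the earlier group against 35.5 CPM (32.7 to 38.5) in the later one, a log2 ratio of -3.00, with -3.32 to -2.73 when 1 cell was left out. H19, the noncoding RNA beside Igf2, had a ratio of -0.91 and Dlk1, a Notch ligand relative, one of -0.96, and neither was called. Igf2r, the receptor that clears Igf2, had 0 reads at E14.5 and 15.4 CPM in 3 of 15 E12.5 cells, at least 83.4-fold higher than the limit of 3 reads, and was not called because of the few cells.

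In the fetal Lin28 list, 1 of 7 genes was called higher, beside 2.78% of all genes tested. Arid3a, a DNA binding protein of haematopoietic cells, was read in 8 of 12 E14.5 and 3 of 15 E12.5 cells, and its pooled 32.3 and 2.34 CPM gave a log2 ratio of 3.32. One E14.5 cell held 50.7% of that group's Arid3a reads. Lin28b, the fetal RNA binding protein, was at 42.4 and 40.4 CPM (0.07). Hmga2, a chromatin protein kept up by Lin28b, was read in every cell, with medians of 124 CPM at E14.5 and 175 CPM at E12.5 and a ratio of -0.84 that was not called. By the mean of the cells' CPM, or thinned, 2 genes of this list were called higher.

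**Figure D4:**
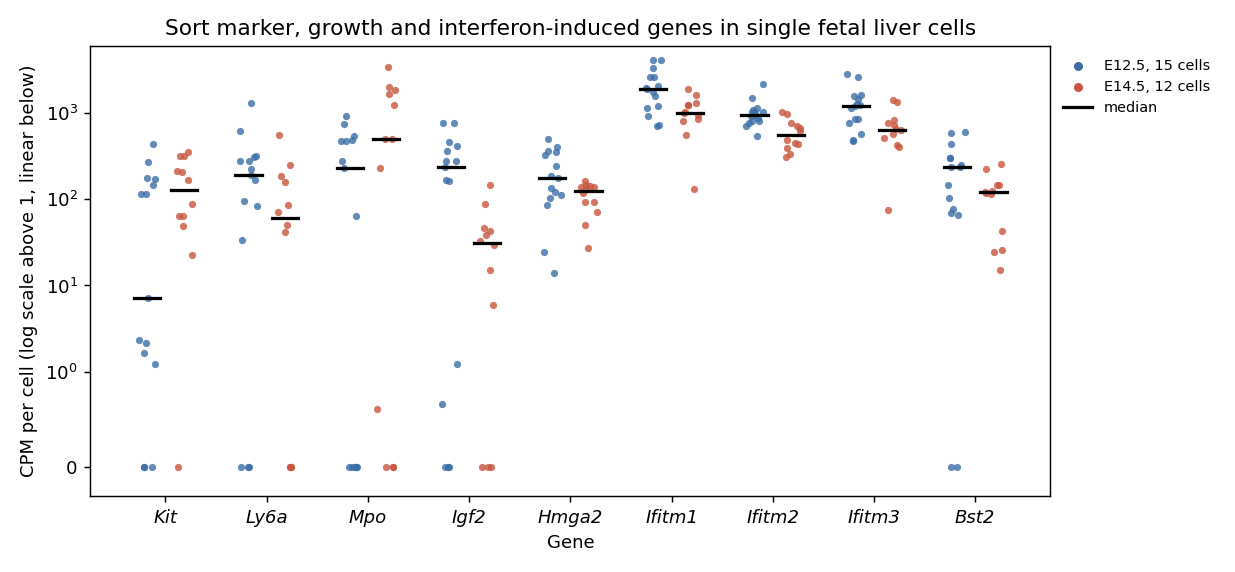
Level of 9 sorting antigen, myeloid, growth and interferon-induced genes in each kept cell, in CPM on an axis that is logarithmic above 1 and linear below it. Points are single cells, 15 at E12.5 and 12 at E14.5, and bars are medians. For Igf2, 10 E12.5 cells lie above every E14.5 cell, and for Ifitm1 no E14.5 cell lies above the 7 highest E12.5 cells.

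Interferon signalling and response genes had 2 of 20 called lower, none higher, 15 ratios below 0 and a median of -0.81. Of all genes tested, 1.93% were called lower. Ifitm1 (ENSMUSG00000025491.14, chromosome 7, 140967221 to 140969825 on the plus strand of mm10), a membrane protein that interferon induces and that germ and stem cells also express, was read in every cell. It ran from 131 to 1909 CPM at E14.5, with a median of 1009, and from 699 to 4161 CPM at E12.5, with a median of 1905. Of the E12.5 cells 7 lay above every E14.5 cell of Ifitm1, and 1 E14.5 cell lay above the E12.5 median. Its pooled log2 ratio was -1.18 (989 against 2240 CPM), with -1.29 to -1.04 when 1 cell was left out. The neighbours Ifitm2 and Ifitm3 had ratios of -0.84 and -0.87 and were not called, with 6 and 5 E12.5 cells above every E14.5 cell. These 3 genes are alike in sequence, so reads may be shared among them. Their sum had a median of 4124 CPM (2110 to 7006) per E12.5 cell, and of 2199 CPM (511 to 3634) per E14.5 cell.

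Jak1, the kinase of interferon and cytokine receptors, was called lower, with medians of 2.09 CPM at E14.5 and 71.8 CPM at E12.5 and a log2 ratio of -2.30 (28.8 against 146 CPM). Bst2, the antiviral protein tetherin, had medians of 120 and 239 CPM, and its ratio of -1.08 was -0.93 without E12.5 cell 2. By the mean of the cells' CPM and after thinning, 1 interferon gene in place of 2 was called lower. The MHC class I list, which interferon also induces, had a median of 0.10. It had no call among 13 genes, beside 2.78% of all genes tested called higher and 1.93% lower. B2m, the light chain, had a ratio of -0.53 and Psmb8, an immunoproteasome subunit, one of -0.62.

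Metabolic lists lay near the median of all genes, with single members called. Of all genes tested, 2.78% were called higher and 1.93% lower, so a single call in such a list is no result about the list. Of 25 nuclear genes of oxidative phosphorylation, Ndufs1, a subunit of complex I, was called higher (medians 160 and 2.27 CPM, log2 ratio 1.93), and the list's median was 0.01. Of 19 glycolysis genes, Slc16a1, the lactate and pyruvate carrier, was called higher with a ratio of 3.60 (75.5 against 5.32 CPM). Ldhb, a lactate dehydrogenase subunit, was called lower with a ratio of -1.17 (235 against 529 CPM), and the median was 0.02. With 10 CPM added, or with all 32 wells, no glycolysis gene was called lower. Of 25 ribosome biogenesis genes, Utp4, of the small subunit processome, was called higher with a ratio of 1.59 (157 against 51.5 CPM), and the median was 0.14. The mean of the cells' CPM and thinned reads each gave 2 called higher there. The BCL2 family, 11 genes, and the AP-1 and immediate early list, 13 genes, had no call and medians of 0.49 and 0.44, though all 32 wells gave 1 BCL2 family gene called higher.

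The largest calls over all genes fell outside these lists, apart from Slc16a1. Among the 12 called higher with the largest ratios were Taf8, a subunit of the general transcription factor TFIID, at 67.7 and 0.64 CPM (5.39), and Tmem109, a membrane protein, at 86.02 and 2.07 CPM (4.82). Lrrc41, an adaptor of ubiquitin ligases, was at 119 and 5.80 CPM (4.15), Gnpda1, a glucosamine-6-phosphate deaminase, at 103 and 4.04 CPM (4.37), and Nsl1, of the kinetochore, at 77.6 and 4.47 CPM (3.85). Each was read in 6 to 9 of the 12 E14.5 cells and in 2 of the 15 E12.5 cells. The call required a read in 50% or more of the E14.5 cells and set no such limit at E12.5. The others were Gorab, Ddx55, Cables2, Abcb8, Scyl3 and Rras2. Their E12.5 cells with a read ran from 1 for Ddx55, Cables2 and Scyl3 to 4 for Abcb8, and Slc16a1 had 6.

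Among the 12 called lower with the largest ratios, Ecm1, a secreted matrix protein, was read in 8 of 15 E12.5 cells, up to 897 CPM, and in 2 of 12 E14.5 cells, up to 18.3 CPM (log2 ratio -5.98). Nt5c2, a purine nucleotidase, was at 1.97 CPM at E14.5 and 90.6 CPM at E12.5 (-4.95), and Lipa, the lysosomal acid lipase, at 0.31 and 37.8 CPM (-4.89). Btbd7 had no read in any E14.5 cell and was read in 8 of 15 E12.5 cells at 44.7 CPM pooled, at least 242-fold higher than the limit of 3 reads. Fars2, a mitochondrial tRNA synthetase, had a ratio of -3.60 (15.3 against 196 CPM). The others were Tom1l1, Sik3, Kansl1, Eml3, Sel1l, Rab27a and Slc43a2. All 5 genes described here were undetected in most E14.5 cells and unread in 6 or 7 E12.5 cells. The call required a read in 50% or more of the E12.5 cells and set no such limit at E14.5. The genes only named here were read in 1 (Eml3, Slc43a2) to 6 (Tom1l1) of the 12 E14.5 cells.

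Markers of other cells were summed in the kept cells. Slc4a1, which helped to choose the cells, was at 0 in all 27. Its limit left out 4 E14.5 wells and no E12.5 well. The erythroid comparison below is therefore not free of the choice of cells. Of 13 erythroid genes tested, 2 were called lower at E14.5, beside 1.93% of all genes tested. Hba-a1, an adult alpha globin, had a median of 17.1 CPM (1.39 to 152) in E14.5 cells and of 66.9 CPM (0 to 1334) in E12.5 cells, a log2 ratio of -2.64, and Hbb-bs, an adult beta globin, had a ratio of -1.95. Both are near copies of Hba-a2 and Hbb-bt, and both ratios turn positive when the left-out wells return. Hbb-bt itself was not called, with a ratio of -0.40 (-1.10 to 0.15 when 1 cell was left out). Its median was 94.8 CPM in E14.5 cells and 44.9 CPM in E12.5 cells, so adult beta globin genes did not move alike. The embryonic globins Hbb-y and Hba-x were both read in 6 of 15 E12.5 cells and in 0 of 12 E14.5 cells. For 0 of 12 the exact Clopper-Pearson 95% upper limit is 26.5% of cells. That limit takes the 12 cells as independent draws and leaves out differences between embryos. Pooled Hbb-y was 216 CPM at E12.5 with 1 read at E14.5. For Hba-x, with 0 reads at E14.5, the E12.5 level exceeded the limit of 3 reads at least 331-fold. Erythroid sums per cell ran from 556 to 4501 CPM in the earlier group and from 702 to 3622 CPM in the later one. Car2 was read in every cell, at 1240 and 1277 CPM pooled, which HSCs also express.

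Apart from Mpo of the granule list, given above, and Eif2s3y, given below, the other marker lists gave no call. The shares over all genes tested were 2.78% called higher and 1.93% lower. Macrophage genes summed to a median of 681 CPM (0 to 2403) in the E12.5 cells, and of 509 CPM (1.02 to 2312) in the E14.5 cells, carried by Lyz2, with Mrc1, Cx3cr1, Vsig4, Marco and Trem2 at 0 in all kept cells. Of the 6 macrophage genes tested 5 had a ratio above 0, and their median log2 ratio was 2.17, or 3.35 with genes at 0 in one group set at their bound. E14.5 cell 7 had reads of 7 macrophage genes, and no other kept cell had reads of more than 3. It held all E14.5 reads of C1qa and C1qc, 2 complement genes of macrophages. Megakaryocyte genes had medians of 143 and 65.5 CPM, lymphoid genes of 236 and 95.7 CPM, and endothelial genes of 1112 and 1086 CPM, the last carried by Egfl7. Hepatocyte genes had medians of 0 at both ages, as had stromal genes, and Ttr and Fgb were at 0 in every kept cell. Eif2s3y, on the Y chromosome, was called lower (log2 ratio -1.85). The 4 Y genes summed to 10 CPM or more in 8 of the 15 E12.5 cells and in 4 of the 12 E14.5 cells. Of the called genes 8 higher (2.48%) and 10 lower (4.48%) lie on a sex chromosome, beside 370 of the 11583 tested (3.19%). The part of these markers in the results was not tested.

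The E11.5 cells of the series give a further point of reference, as pooled levels with no call. All of them were pooled without the limits set for liver wells, which none would have failed. The lowest had 2675 genes, and Slc4a1 was at 0 in each. Tissue and age differ between these groups and the liver groups, so their parts cannot be told apart. Of the 37 replication genes 28 were lower at E12.5 than in both the aorta-gonad-mesonephros (AGM) and the yolk sac cells, as were 3953 of the 11583 genes tested. At E14.5, 21 of the 37 and 4752 of the 11583 were higher than in both. The 10 called higher, which were chosen for a low E12.5 and a high E14.5 level, gave 10 and 8, and the other 27 gave 18 and 13. In the order AGM, yolk sac, E12.5 and E14.5, Mcm3 was at 416, 437, 140 and 641 CPM. Rrm2 was at 129, 236, 26.7 and 224 CPM in that order. Both genes were at their lowest in the E12.5 cells among the 4 groups. Mcm3, Rrm2, Igf2, Ifitm1 and Mpo were named because they were called, so the order of E12.5 and E14.5 in each was fixed in advance. Their place beside the E11.5 groups was not fixed. A choice for an extreme liver level also favours an extreme place there, so these places are described only. Igf2 went from 886 CPM in AGM and 380 CPM in yolk sac to 291 and 35.5 CPM in liver, its lowest level at E14.5. Ifitm1 was at 791 and 665 CPM in the E11.5 groups and at 2240 and 989 CPM in liver, its highest level at E12.5. Mpo was at 167, 359, 294 and 1023 CPM in the order used for Mcm3, highest at E14.5.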

How the data were processed

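One table deposited by the authors holds whole-number read counts for each gene in 96 wells. Per the labels' protocols, each well received 1 sorted cell, a SMART-Seq kit for single cells made the cDNA, and a transposome cut and tagged it before 12 cycles of PCR. Counts are therefore reads without molecular identifiers, and counting intervals are too narrow. The submitters' processing notes name FastQC, Trimmomatic 0.36, STAR, HTSeq and mm10. The parameters, the annotation and whether strand was used are not given in the sources used here, so antisense and overlapping genes may share reads.

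All 96 columns were mapped by name and 0 were left unmapped. The 113 rows that repeat a symbol were summed, which gave 19836 genes. Wells with under 2000 genes (E12.5 cell 8) or over 100 CPM of Slc4a1 (E14.5 cells 3, 8, 13 and 16) were left out. Reads were summed over the cells of each age, which came to 18802888 at E12.5 and 16229574 at E14.5, scaled to CPM, and compared as log2(CPM + 1), a scale that understates low genes. With 1 sample per age there is no p-value. A call needed a log2 ratio of at least 1 with all cells and with each left out in turn, and a read in 50% or more of the cells at the age with the higher level. Pooled levels have exact 95% Poisson intervals. Doublets were not called, because the sort put 1 cell in a well. The calculation was tested on simulated data with counting error only and no variation between cells of 1 age. That test checks the arithmetic and cannot tell how often the rule calls a gene falsely in cells that vary as these do.

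Members, lists and rules were chosen with earlier results of these data known. Named genes were the sort markers, up to 6 called members per list by the smallest ratio with any cell left out, the 12 largest calls in each direction by the same measure (without predicted, mitochondrial, ribosomal protein and sex-linked genes), marker genes of other cells and list members with a described role. Of the called replication genes named, 5 are beyond the rule. A few called genes covered by this rule are not reported here. Alternatives were all 32 wells, 10 CPM of Slc4a1, the mean of the cells' CPM, TMM scaling (edgeR 4.0.16), thinning to 500000 reads, 10 CPM added, no read minimum and each cell left out. Promoter windows are RefSeq's for GRCm38.p6, and gene positions come from GENCODE, where 17756 of 17793 Ensembl IDs matched. Python 3.11.15, numpy 2.4.6, pandas 2.3.3, scipy 1.17.1 and R 4.3.3 were used.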

Additional observations from a re-analysis of the deposited data

Results flagged for a closer look

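In 5 liver wells left out of the comparison, markers of other cells stood above the levels of the kept cells. In E12.5 cell 8, which had 1011 detected genes, the macrophage list summed to 24905 CPM, while no kept E12.5 cell passed 2403 CPM. The erythroid list of that well summed to 14714 CPM, while no kept E12.5 cell passed 4501 CPM. The 4 E14.5 wells left out for Slc4a1 had erythroid sums of 167160 CPM (cell 3), 147770 CPM (cell 8), 51321 CPM (cell 13) and 254880 CPM (cell 16), while no kept E14.5 cell passed 3622 CPM.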

How the results depend on the processing

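With 10 CPM added in place of 1, 211 genes were called higher and 139 lower, all of them among the 322 and 223. With all 32 wells the log2 ratio of Hba-a1 became 5.55 and that of Hbb-bs 6.82, and 284 genes were called higher and 204 lower, of which 203 and 166 were shared. Leaving out 1 cell gave 267 (without E14.5 cell 7) to 380 (without E12.5 cell 2) called higher, 222 to 291 called lower, and 7 to 14 replication genes called higher. The mean of the cells' CPM gave 335 and 229, TMM scaling 299 and 230, and thinned reads 303 and 213. No paired analysis was possible because well numbers only name wells and no test was made. Read depth limits all calls, since a gene at 0 in a cell may be below 1 captured molecule. Differences between embryos, litters and sorts were not measured.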

Other observations

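Several called genes outside the lists, chosen after their values were seen, were related to those described. Foxm1, a transcription factor of the cell cycle, was read in 9 of 12 E14.5 and 4 of 15 E12.5 cells and was called higher (log2 ratio 2.15). Apoe, a lipid carrier, was called lower, with medians of 436 CPM at E14.5 and 1443 CPM at E12.5. Nfkbia, the inhibitor of NF-kappaB, was read in 4 of 12 E14.5 and 13 of 15 E12.5 cells (log2 ratio -2.65), and Btg1, an inhibitor of proliferation, in 3 of 12 and 12 of 15 (-2.91). Both were called lower.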
